A study of Mus musculus with 28 samples.

Results

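The mRNAs that encode the proteins of the cytosolic ribosome were followed across 2 cytokine time courses in mouse CD4+ T cells. Members were the genes whose symbol is Rpl, Rps or Rplp, then a number and at most 1 letter, and that reached at least 1 RPKM (reads per kilobase of transcript, scaled to the library total) in any of the 9 RNA-seq libraries. For a symbol with several transcript rows, the row with the highest mean RPKM was used. The rule found 78 genes among 23222 symbols: 44 of the large subunit (Rpl), 31 of the small subunit (Rps) and 3 of the P stalk (Rplp0, Rplp1, Rplp2). It used only a floor on the level, not a difference between conditions. A further 2 symbols of the same form fell below it: Rpl10l had 0 reads in every library and Rpl3l peaked at 0.031 RPKM. The member nearest to the floor was Rpl39l, with a highest level of 1.11 RPKM, and the next was Rps27l, with levels from 88.1 to 183 RPKM.

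The cells were wild-type C57BL/6 splenic CD4+ T cells that all shared the same preparation: 3 days on plate-bound anti-CD3 (2 μg/ml) with anti-CD28 (1 μg/ml), followed by a night of rest. Total RNA was then taken from cells without cytokine, or after 0.5, 2, 4 or 24 h with interleukin-2 (IL-2) or interleukin-21 (IL-21). Both cytokines use the common γ chain receptor; STAT5 is the main signal of IL-2 and STAT3 that of IL-21. Each of the 9 conditions had 1 library, and the same control library served all 8 comparisons with control; the labels give no time for it, so cytokine and time in culture cannot be told apart in those comparisons. Library totals ran from 29487905 to 44280989 reads. The 6 CD4 T cell markers checked (Cd4, Cd3d, Cd3e, Cd3g, Cd5, Cd28) had reads in every library, with a summed level of 811 to 1392 RPKM. Another 19 samples of the series are ChIP-seq and were not analysed here.

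A cytosolic ribosome is built from a small and a large subunit, each of ribosomal RNA and many proteins that are needed in equal numbers. Most of these proteins are encoded by single genes that are transcribed strongly in every cell. Their mRNAs begin with a C and a run of pyrimidines, the terminal oligopyrimidine (TOP) tract, through which mTORC1 signalling sets their translation. Resting T cells make few ribosomes, and activated T cells enlarge and make many more.

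Because the TOP tract lies at the transcription start, the start windows of 8 of the members named below are shown, those with a long pyrimidine run first. Each window holds the 15 bases before the RefSeq start and the 15 from it on (RefSeq, build GRCm38.p6; the expression files use mm9, so these coordinates do not apply to them). Capitals mark the longest run of C and T.
Rps27, chr3:90213634-90213663, minus strand: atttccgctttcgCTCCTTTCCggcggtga
Rpl28, chr7:4792950-4792979, plus strand: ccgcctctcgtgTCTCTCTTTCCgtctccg
Rps15a, chr7:118116133-118116162, minus strand: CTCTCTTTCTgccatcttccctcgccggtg
Rps9, chr7:3704026-3704055, plus strand: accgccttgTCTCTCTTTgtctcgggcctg
Rps26, chr10:128626492-128626521, minus strand: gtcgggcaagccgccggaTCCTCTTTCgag
Rps2, chr17:24720048-24720077, plus strand: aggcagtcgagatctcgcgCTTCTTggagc
Rpl5, chr5:107900513-107900542, plus strand: TCTCacgtcgcttgcgtgctggtggtgcta
Rpl24, chr16:55966260-55966289, plus strand: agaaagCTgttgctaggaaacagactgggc
The first 5 of these windows hold a run of at least 8 pyrimidines and the other 3 do not, and the windows of Rps27, Rpl28 and Rps15a also have a C at the start itself followed by 4 pyrimidines.

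RefSeq start sequences were matched for 57 of the 78 members (68 starts); those of Rps14, Rpl17 and Rps29 were among the unmatched. A C at the start followed by 4 pyrimidines was present in 13 of the 57 members (22.8%), against 3.01% of 27025 genes. These 27025 were all genes with a start sequence, expressed here or not, and no set matched for level was compared. A run of at least 8 pyrimidines within 15 bases of the start was present in 26 (45.6%), against 13.9% of genes. In the 300 bases from 250 before to 50 after the start, on either strand and with overlaps between motifs allowed, CCGGAAG (the core bound by ETS factors) was present in 24 members (42.1%, against 9.93% of genes) and AAGATGGC (bound by YY1) in 5 (8.77%, against 3.19%). The E-box CACGTG was found in 6 members (10.5%, against 8.09%). TTCNNNGAA, the spaced palindrome bound by STAT factors, was found in 3 members (5.26%, against 9.55%), and TATAAA in 6 (10.5%, against 15.7%). These matches are a description of letters in a window around the RefSeq start. Where transcription starts in these cells was not measured, so a member without a match here may still have a TOP tract.

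As a class these genes were among the most highly expressed in the cells. In the control library their median was 1713 RPKM, against 9.56 RPKM over the 11046 genes that reached 1 RPKM, and 70 of the 78 stood among the 100 highest genes. In 73 of the 78, the level was above 400 RPKM in every library. Levels per length are less exact for transcripts near the 250 to 400 bp size of the sequenced fragments, and 32 members had rows under 600 bases. Many ribosomal protein genes have processed pseudogenes of nearly the same sequence, and how reads matching several copies were counted is not given in the sources used here, so each gene's level is uncertain to that extent.

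The 3 highest means belonged to Rplp1, Rps27 and Rps12. Rplp1, an acidic protein of the stalk that recruits translation factors, had 3444 RPKM in the control library, 3649.7, 2819.9, 2643 and 2541 with IL-2 from 0.5 to 24 h, and 2954, 2752, 3112 and 2669 with IL-21. Rps12, a protein of the small subunit head, had 3163 RPKM without cytokine, 3223, 2675, 2427 and 2138 along the IL-2 course and 2838, 2659, 2797 and 2260.0 along the IL-21 course. Both genes were highest with IL-2 at 0.5 h and lowest with IL-2 at 24 h.

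At the low end stood Rpl39l, Rps27l and Rps15a. Rpl39l, a paralog of Rpl39 that is mainly expressed in testis, had 0.976 RPKM in the control library, 1.01, 0.785, 0.707 and 0.72 with IL-2 from 0.5 to 24 h, and 0.688, 0.645, 1.11 and 0.492 with IL-21; it had 206 reads over all 9 libraries, and its ratio to control with IL-2 at 24 h was 0.738 with a counting interval of 0.383 to 1.39. Rps15a, a small subunit protein, had 202 RPKM without cytokine, 196, 168, 165 and 128 along the IL-2 course and 182, 173, 172 and 185 along the IL-21 course. Its row is 5134 bases long, against a median of 694 bases over the members, and its RPKM depends on that length.

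**Figure D1:**
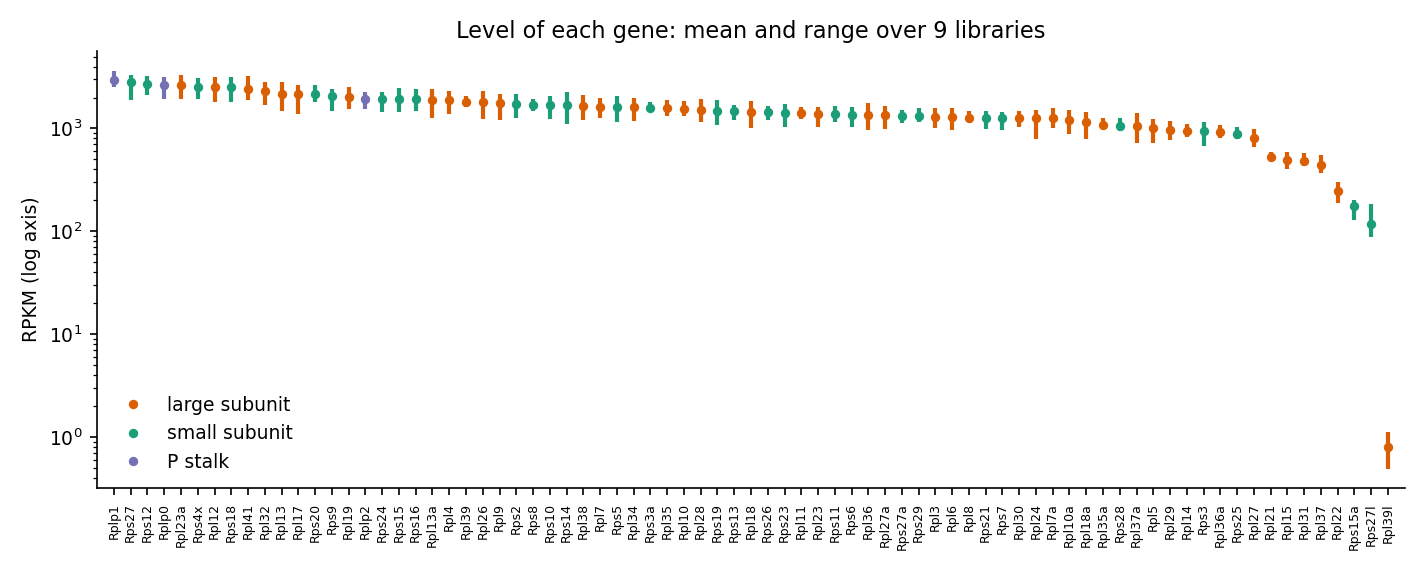
Level of each of 77 genes in RPKM on a log axis, ordered by the mean; points are means over the 9 libraries, lines run from the lowest to the highest library, and colours mark the subunit. Nearly all lie above 400 RPKM, and Rpl39l stood apart near 1 RPKM.

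Ribosomal protein mRNAs took a smaller share of the reads at 24 h of either cytokine than in the control library, and the smallest with IL-2. The 78 genes held 10.2% of all reads in the control library (95% exact binomial interval 10.22 to 10.24%, counting error only). With IL-2 the share was 10.4% at 0.5 h, 8.39% at 2 h, 7.83% at 4 h and 6.76% at 24 h. With IL-21 it was 8.91%, 8.17%, 9.03% and 7.67% at the same times. Thus the IL-2 libraries went down at each step from 0.5 h, whereas the IL-21 libraries went down, up at 4 h and down again. RPKM and shares are relative measures, and these are bulk samples: less of these mRNAs per cell, more of other RNA per cell, and a change in which cells are present cannot be told apart.

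**Figure D2:**
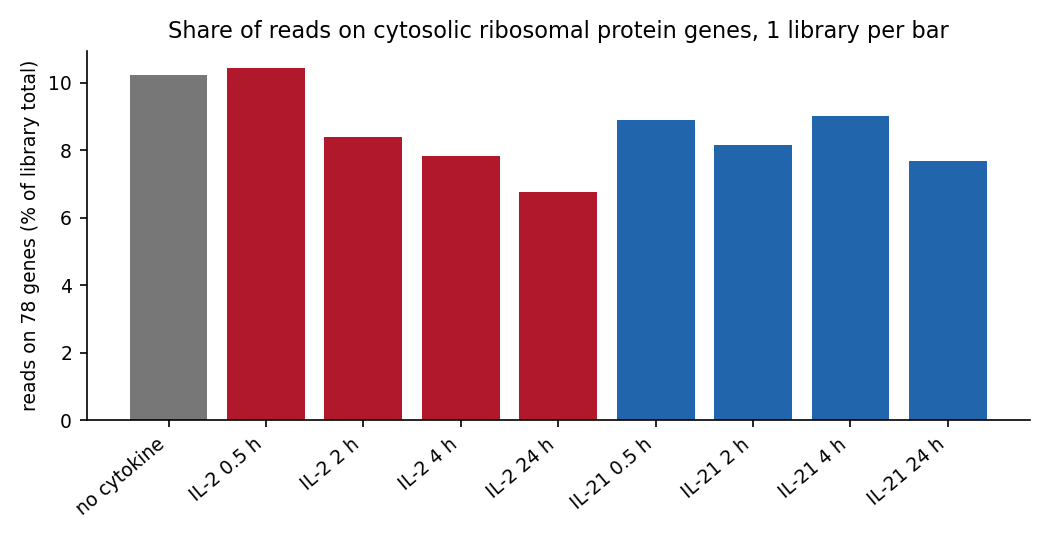
Percent of each library's reads that fell on the 78 ribosomal protein genes, 1 library per bar (grey, no cytokine; red, IL-2; blue, IL-21). The bars run from 6.76% with IL-2 at 24 h to 10.4% with IL-2 at 0.5 h, and the IL-21 bars lie between 7.67% and 9.03%.

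With IL-2, nearly the whole set moved below the control library together, by more at each later time. The median difference from control, on the log2(RPKM + 1) scale used throughout, was 0.03 at 0.5 h, −0.28 at 2 h, −0.38 at 4 h and −0.62 at 24 h, while the median of all 11046 genes was 0.02, −0.04, 0.01 and 0.05. At 24 h this is a level 34.9% below control for the median member. Counting a difference of at least 1.2-fold, 0, 49, 69 and 69 of the 78 members were lower at the 4 times, against 4.01%, 26.6%, 29.5% and 32.5% of all genes. The count at 2 h was 27 with library totals that leave out the members. Higher members numbered 0, 0, 1 and 2 (4.13%, 22.9%, 30.9% and 38.1% of all genes), with Rps27l among them at 4 and 24 h. With the deposited RPKM, no member was 2-fold lower or higher at any time with either cytokine. The nearest to 2-fold lower was Rps14 with IL-2 at 24 h (−0.95). Other scalings put the members' median at that time further below control, and the 2-fold count was not repeated under them. With 1 library a condition, these folds have no replicate check.

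The members also stayed close to each other. At 2 h of IL-2 their differences had an SD of 0.06, against 0.47 over all genes, and at 24 h 0.28 against 0.75. At 0.5 h, when the members' median was 0.03, the SD was already 0.04 against 0.20. Most of the other genes have far lower levels, and no set matched for level was compared. All 78 were below control at 2 h, 77 at 4 h and 76 at 24 h, and 66 went down at each of the 3 steps from 0.5 to 24 h. The lowest of the 9 libraries was IL-2 at 24 h for 57 members and IL-21 at 24 h for 17. The highest was IL-2 at 0.5 h for 54 and the control for 21. That split depends on the scaling: 56 members were above control with IL-2 at 0.5 h, and 44 to 53 under the 3 other scalings described below.

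With IL-21 the members were already below control at 0.5 h, lay nearer to it at 4 h than at 2 h, and were lowest at 24 h. At 0.5 h the IL-21 median was below control while the IL-2 median was slightly above it (0.03). The IL-21 median was further below control than the IL-2 median at 2 h and less far below it at 4 and 24 h. The median difference from control was −0.21 at 0.5 h, −0.32 at 2 h, −0.18 at 4 h and −0.41 at 24 h, with all-gene medians of −0.05, −0.04, 0.01 and −0.00. Members at least 1.2-fold lower numbered 17, 65, 0 and 66 (5.98%, 25.7%, 19.8% and 24.0% of all genes), and 0 were higher at any time (6.69%, 20.6%, 21.6% and 21.8%). The counts of lower members at 0.5 and 4 h depended on the scaling: they were 5 and 24 with TMM (trimmed mean of M values) factors and 10 and 2 with upper-quartile factors, and with library totals that leave out the members the count at 0.5 h was 8. In 75 members all 4 IL-21 libraries were below control. Between 2 and 4 h, 77 members went up, by a median of 0.15 against 0.06 over all genes, and between 4 and 24 h 73 went down, by a median change of −0.23 against −0.06.

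**Figure D3:**
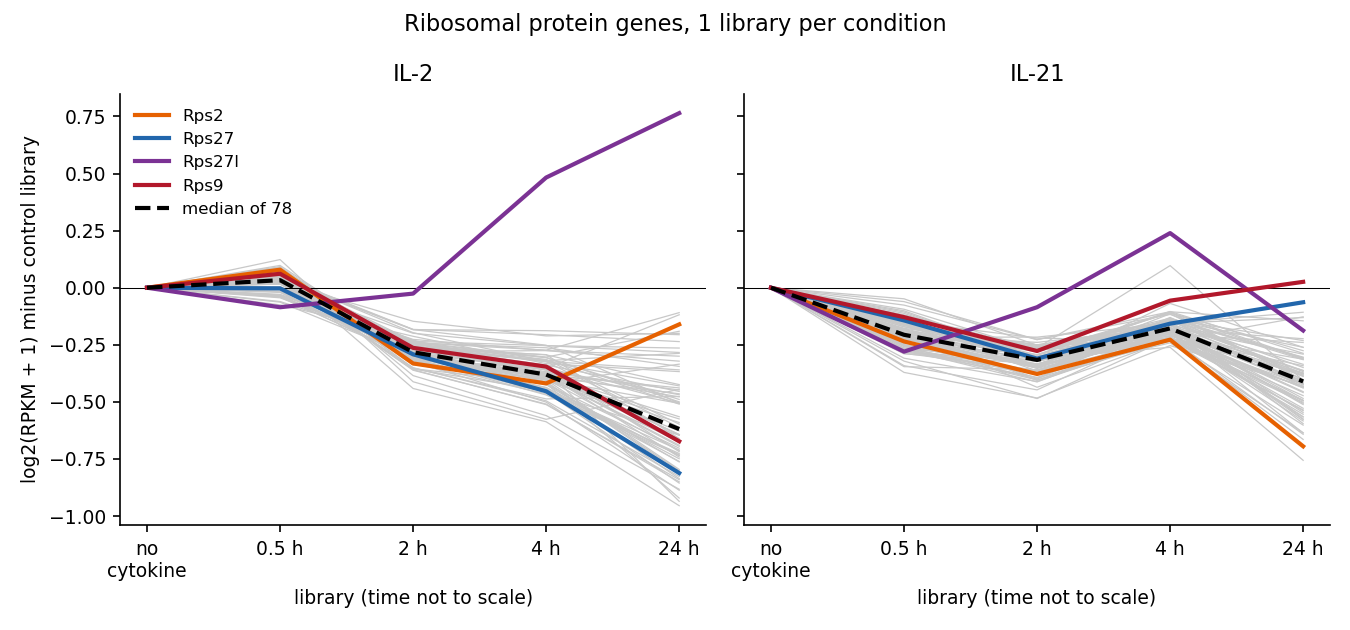
Difference of each of 77 genes from the control library on the log2(RPKM + 1) scale, with IL-2 (left) and IL-21 (right); grey lines are genes, coloured lines 4 named genes, and the dashed line is the median of all 78. With IL-2 the median goes from 0.03 to −0.62, and Rps27l ends above 0; with IL-21 the median goes up between 2 and 4 h and ends at −0.41.

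Set side by side at each time, the members were higher with IL-2 at first and mostly lower later. The median of IL-2 minus IL-21 was 0.23 at 0.5 h, 0.04 at 2 h, −0.20 at 4 h and −0.17 at 24 h, with all-gene medians of 0.08, 0.02, −0.00 and 0.07. At least 1.2-fold higher with IL-2 were 27, 0, 0 and 4 members (13.4%, 12.7%, 25.2% and 38.2% of all genes), and lower 0, 0, 16 and 30 (10.8%, 9.13%, 22.2% and 30.0%). The 27 at 0.5 h became 11 with TMM factors and 17 with totals that leave out the members, and the 16 at 4 h became 44 with upper-quartile factors and 26 with those totals. At 0.5 h all 78 lay on the IL-2 side (77 with TMM factors) and at 4 h 77 on the IL-21 side, whereas at 24 h 58 were lower and 20 higher with IL-2. The split at 24 h was 64 lower and 14 higher with TMM factors, and 69 and 9 with upper-quartile factors.

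All-gene counts at 24 h depended on the scaling, while the sign of the members' median did not in any of the 12 comparisons under the 3 other scalings tried. Upper-quartile scaling moved the all-gene median of IL-2 against control at 24 h from 0.05 to −0.11. The all-gene split went from 4213 higher and 3586 lower to 3247 and 4546, and between the cytokines from 4217 and 3318 to 3386 and 4131. The members' median with IL-2 at 24 h was −0.81 under that scaling and −0.72 with TMM factors.

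The members were spread more widely at 24 h than earlier, as were all genes, and a few members stood apart from the rest. The SD of IL-2 minus IL-21 over the members was 0.28 at 24 h and 0.09 at 0.5 and 4 h. Over all genes it was 0.25 at 0.5 h, 0.46 at 4 h and 0.75 at 24 h. Rps27l, a paralog of Rps27 known as a target of p53, had 107 RPKM in the control library, 101, 105, 150.1 and 183 with IL-2 from 0.5 to 24 h, and 88.1, 101, 127 and 94 with IL-21. It was the highest of the members in its IL-2 difference at 24 h (0.76) and lay 1.94-fold above its IL-21 level (95% counting interval 1.83 to 2.07). Its IL-2 libraries at 4 and 24 h were above all other libraries.

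Rps2, which lines the channel where mRNA enters the small subunit, had 2057 RPKM in the control library, 2172, 1634, 1538 and 1839.9 with IL-2 from 0.5 to 24 h, and 1747, 1583, 1756 and 1270.4 with IL-21. It went up between 4 and 24 h of IL-2 and down over the same interval of IL-21, so the 24 h libraries differed by 1.45-fold (1.43 to 1.47).

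Rps26, which lies at the channel where mRNA leaves and is mutated in Diamond-Blackfan anaemia, had 1607 RPKM without cytokine, 1649, 1360.0, 1329 and 1489.6 along the IL-2 course and 1498, 1297, 1493 and 1213 along the IL-21 course. Its IL-2 level at 24 h was 0.11 log2 units below control and 1.23-fold (1.21 to 1.25) above its IL-21 level. Rps27l, Rps2 and Rps26, all of the small subunit, were among the 4 members that passed 1.2-fold on the IL-2 side at 24 h.

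The opposite order was seen for Rps27, Rps9 and Rps15a. Rps27, a zinc-binding small subunit protein, had 3303 RPKM in the control library, 3297, 2698, 2412 and 1882 with IL-2 from 0.5 to 24 h, and 2991, 2663, 2962 and 3161 with IL-21. Rps9, which helps set decoding accuracy, had 2341 RPKM without cytokine, 2442, 1950.2, 1842 and 1468 along the IL-2 course and 2141, 1932, 2251 and 2383 along the IL-21 course. In both, the IL-21 library at 24 h was near control (differences of −0.06 and 0.03, the latter −0.01 with upper-quartile scaling) while the IL-2 library at 24 h was the lowest of the 9 (−0.81 and −0.67). Rps15a, with its values given above, stood at −0.66 with IL-2 and −0.13 with IL-21.

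These shifts changed the proportions of ribosomal protein mRNAs in 1 library against another. The ratio of Rps2 to Rps9 RPKM was 0.878 in the control library and between 0.780 and 0.889 in the cytokine libraries up to 4 h, then 1.25 with IL-2 and 0.533 with IL-21 at 24 h. Rps27l stood at 0.0324 of the Rps27 level in the control library, 0.0971 with IL-2 at 24 h and 0.0297 with IL-21 at 24 h. Both pairs were chosen after their values were seen.

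**Figure D4:**
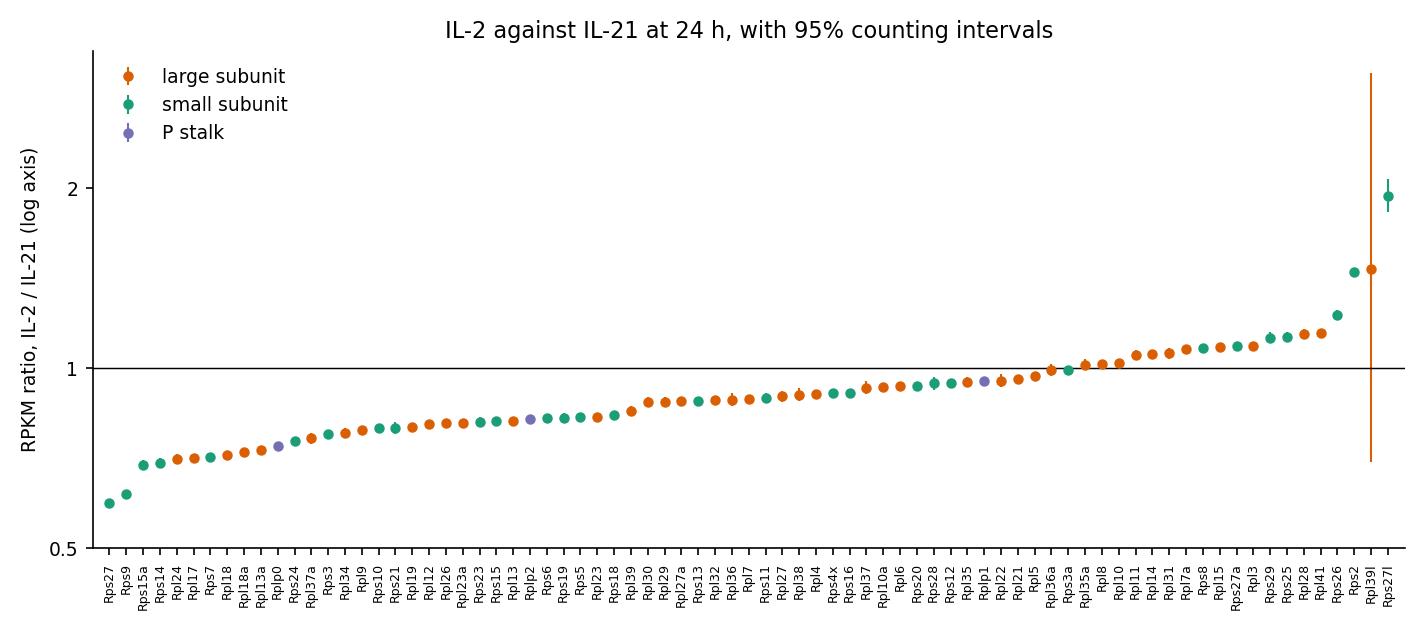
Ratio of RPKM with IL-2 to RPKM with IL-21 at 24 h for each of 77 genes, on a log axis, with 95% counting intervals and colours for the subunit. The ratios run from 0.595 for Rps27 to 1.94 for Rps27l, and the interval of Rpl39l alone is wide.

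The lowest IL-2 differences at 24 h were those of Rps14, Rpl24 and Rpl17. Rps14, the small subunit gene whose loss of 1 copy underlies the anaemia of the 5q− syndrome, had 2164 RPKM in the control library, 2260.1, 1594, 1440.3 and 1116 with IL-2 from 0.5 to 24 h, and 1673, 1548, 1815 and 1606 with IL-21. Rpl24, a large subunit protein at the interface with the small subunit, had 1508 RPKM without cytokine, 1498, 1286, 1174 and 788 along the IL-2 course and 1345, 1243, 1351 and 1116 along the IL-21 course. Both were lowest with IL-2 at 24 h, where Rps14 was at 0.516 and Rpl24 at 0.523 of the control level.

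Rpl17, which forms part of the wall of the tunnel for the growing peptide, had 2631 RPKM in the control library, 2628, 2123, 1967 and 1389 with IL-2 from 0.5 to 24 h, and 2371, 2076, 2308 and 1962 with IL-21. Its IL-2 library at 24 h was again the lowest. Rps7, which can bind the p53 regulator Mdm2, was among the 3 highest in the IL-21 difference at 24 h and had 1448 RPKM without cytokine, 1432, 1221, 1164 and 956 along the IL-2 course and 1263, 1196, 1300.4 and 1344 along the IL-21 course.

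The lowest IL-21 differences at 24 h were those of Rpl5, Rps2 and Rpl28. Rpl5, which carries 5S RNA with Rpl11 and holds Mdm2 when ribosome assembly fails, had 1245 RPKM in the control library, 1214, 1028, 935 and 714 with IL-2 from 0.5 to 24 h, and 1115, 1004, 1039 and 737 with IL-21. In Rpl5 both 24 h libraries were far below control and close to each other (ratio 0.969). Rpl28, a large subunit protein, had 1827 RPKM without cytokine, 1927, 1432, 1304 and 1313 along the IL-2 course and 1606, 1350.5, 1560.4 and 1153 along the IL-21 course, and its lowest library was IL-21 at 24 h.

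The 8 cytokine libraries allowed 3 tests across genes, in which times or cytokines stand in for replicates. Whether different mice or cultures gave the libraries is not stated, so p-values reflect only how these libraries vary. For IL-2 against IL-21 over the 4 times, edgeR's quasi-likelihood test passed 0 of the 78 members at an adjusted p below 0.05 (0.0383% of 10452 genes passed). At an unadjusted p below 0.05 the count was 0 (14.6% of genes), and DESeq2 and limma also passed 0. The estimate was below 0 for 66 of the 78 (50.2% of genes), with a median of −0.07. The smallest p was that of Rps27l (log2 fold change 0.32 ± 0.17 SE, adjusted p = 0.391 by edgeR), followed by Rps27 and Rps9.

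For 24 h against 0.5 h over both cytokines, edgeR again passed 0 members (0.297% of genes), but 33 had an unadjusted p below 0.05 (20.0% of genes), all of them lower at 24 h. The estimate was below 0 for 76 of the 78 (49.3% of genes), with a median of −0.47. Rpl5 came closest (−0.74 ± 0.17 SE, edgeR adjusted p = 0.125), followed by Rpl22, a protein needed for αβ T cell development (−0.63 ± 0.17, adjusted p = 0.158), and Rpl4, a tunnel protein (−0.64 ± 0.18, adjusted p = 0.161). Rpl22 had 299.8 RPKM in the control library, 303, 247, 234 and 188 with IL-2 from 0.5 to 24 h, and 268, 248, 255 and 197 with IL-21, and Rpl4 had 2252 RPKM without cytokine, 2289, 1904, 1766 and 1369 along the IL-2 course and 2028, 1819, 1996 and 1509 along the IL-21 course. In both genes the 2 libraries at 24 h were the lowest of the 9. DESeq2 passed these 3 members (840 of 10452 genes passed) and limma 0 (47 genes). When a library at 0.5 or 24 h is left out, 1 library stands at that time, and the size of the estimate depended on which. The median edgeR estimate over the members was −0.29 without IL-2 at 0.5 h and −0.31 without IL-2 at 24 h. It was −0.63 without IL-21 at 0.5 h and −0.62 without IL-21 at 24 h.

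The third test asked whether the cytokines part with time, as the difference in slope per doubling of time. edgeR passed 0 members (4.21% of genes). At an unadjusted p below 0.05 the count was 27 (34.6%), near the share of all genes (31.7%). Of these 27, 26 had the more negative slope on the IL-2 side. The estimate was below 0 for 74 members (50.0% of genes). The smallest p was that of Rps14 (−0.18 ± 0.04 SE per doubling, edgeR adjusted p = 0.0591), then Rps9 (−0.17 ± 0.04, adjusted p = 0.0621) and Rps27 (−0.17 ± 0.04, adjusted p = 0.0703). DESeq2 passed 2 members, Rps14 and Rps9 (1393 of 10452 genes passed), and limma 0 (724 genes). The median edgeR estimate over the members was −0.08 per doubling. Leaving out 1 library at a time, it was −0.12 to −0.07.

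Lower levels at 24 h were seen in both subunits and in the stalk. At 24 h the median difference from control was −0.64 for the large subunit, −0.60 for the small subunit and −0.51 for the P stalk, and with IL-21 it was −0.44, −0.36 and −0.23. The stalk proteins with their base Rpl12 were all at least 1.2-fold lower with IL-2 at 24 h (4 of 4, against 2 of 4 with IL-21). So were the 5 measured proteins around the exit of the peptide tunnel, where chaperones and targeting factors dock (Rpl23a, Rpl35, Rpl19, Rpl26, Rpl31; 5 of 5 with both cytokines). The 6 proteins of the small subunit head and beak were also lower with both (6 of 6; medians −0.70 and −0.41).

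Other roles were less uniform. Rpl5 and Rpl11 share the 5S particle, yet at 24 h of IL-2 they stood at −0.80 and −0.24. The 9 genes listed for Diamond-Blackfan anaemia had a median of −0.60, with 6 at least 1.2-fold lower. Rps6, the substrate of S6 kinase downstream of mTORC1, was at −0.61 with IL-2 and −0.34 with IL-21. Rps27a, made as a fusion with ubiquitin, was at −0.29 and −0.41.

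The medians of members with and without these start sequences at 24 h are a description, and their differences were not tested. The 26 members with a run of at least 8 pyrimidines had a median of −0.64 with IL-2 and −0.38 with IL-21, and the 31 without one −0.65 and −0.44. The 24 with CCGGAAG stood at −0.51 and −0.39, and the 33 without it at −0.67 and −0.44. With IL-2, the 6 members with TATAAA had a median of −0.41 against −0.65 for the 51 without it, and the 13 with a C at the start and 4 pyrimidines −0.59 against −0.65. The IL-2 medians with and without the motif were −0.69 and −0.64 for CACGTG, −0.67 and −0.64 for AAGATGGC, and −0.66 and −0.64 for TTCNNNGAA, which 3 members held. For IL-2 minus IL-21 at 24 h, the 5 members with AAGATGGC had a median of −0.45 (quartiles −0.53 and −0.07) and the 52 without it −0.17. This was the widest gap of the 7 sequences. The medians with and without were −0.26 and −0.17 for the C and 4 pyrimidines, −0.25 and −0.14 for the run of 8, and −0.30 and −0.15 for CACGTG. They were −0.13 and −0.27 for CCGGAAG, −0.14 and −0.18 for TTCNNNGAA, and −0.08 and −0.18 for TATAAA. Across the 76 members other than Rpl39l and Rps27l, the IL-2 difference at 24 h had a Pearson correlation of −0.11 with transcript length and −0.24 with mean level. These points share libraries, and the mean level includes the same values.

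Of 9 ribosomal proteins and paralogs whose names do not match the symbol rule, some were lower and some higher with IL-2 at 24 h (median −0.05, against −0.62 for the members). Fau, the fusion gene of Rps30, was at −1.24 with IL-2 and −0.59 with IL-21 at 24 h. Gnb2l1 (Rack1), a scaffold on the small subunit, was at −0.86 and −0.51, and Rpsa was at −0.61 and −0.56. The ribosomal-protein-like Rsl1d1, Rpl7l1 and Rsl24d1, of which the first and last act in ribosome assembly, were higher with IL-2 (1.16, 0.85 and 0.83). The paralogs Rpl22l1 and Rpl36al were at −0.05 and 0.03 with IL-2 and at −0.47 and −0.35 with IL-21. In all, 4 of these 9 genes were at least 1.2-fold lower and 3 higher with IL-2, and 6 lower and 0 higher with IL-21 (median −0.35).

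TOP mRNAs outside the ribosome were split. With IL-2 at 24 h, 9 of 22 were at least 1.2-fold lower and 5 higher (median −0.21), against 32.5% and 38.1% of all genes. With IL-21, 14 were lower and 1 higher (median −0.32), against 24.0% and 21.8% of all genes. The lowest with IL-2 were Gltscr2 (−1.26), the elongation factor Eef2 (−0.995) and the initiation factor subunit Eif3f (−0.87), and the highest were the intermediate filament gene Vim (1.80), Nap1l1 (0.64) and Hnrnpa1 (0.43). Of 10 TOP genes that host small nucleolar RNAs, 3 were lower (Snhg12, Gas5 and Snhg1) and 6 higher with IL-2, and 5 lower and 1 higher with IL-21.

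Genes that load, import or guard ribosomal proteins lay on the other side of control with IL-2. At 24 h 14 of 20 were at least 1.2-fold higher and 1, Mdm2, lower (−0.48; list median 0.75, against −0.62 for the ribosomal proteins), led by the assembly factors Rrs1 (1.80), Grwd1 (1.57) and Brix1 (1.41). With IL-21 6 were higher and 5 lower (median 0.15). Late maturation factors of the subunits showed 13 of 19 higher and 2 lower with IL-2 (median 0.65), with Mrto4 at 1.85, Spata5 at 1.64 and Bysl at 1.46, and 4 higher and 2 lower with IL-21 (median 0.06).

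Regulators of TOP mRNAs and mTORC1 components had 9 of 18 higher and 3 lower with IL-2 (median 0.36). Larp4 was at 1.75, the lysosomal GTPase gene Rragd at 1.49 and Larp1, which binds the TOP tract, at 1.11. With IL-21, 7 were higher and 4 lower (median 0.10). Ribosome rescue and quality control genes had 7 of 14 higher and 2 lower with IL-2 (median 0.26), with the recycling factor Abce1 at 1.92, and 3 higher and 1 lower with IL-21 (median 0.11). For all these lists, the all-gene shares at 24 h were 38.1% higher and 32.5% lower with IL-2, and 21.8% and 24.0% with IL-21. Several list counts are near these shares, among them those higher with IL-21 in the late maturation list (4 of 19) and the rescue list (3 of 14).

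**Figure D5:**
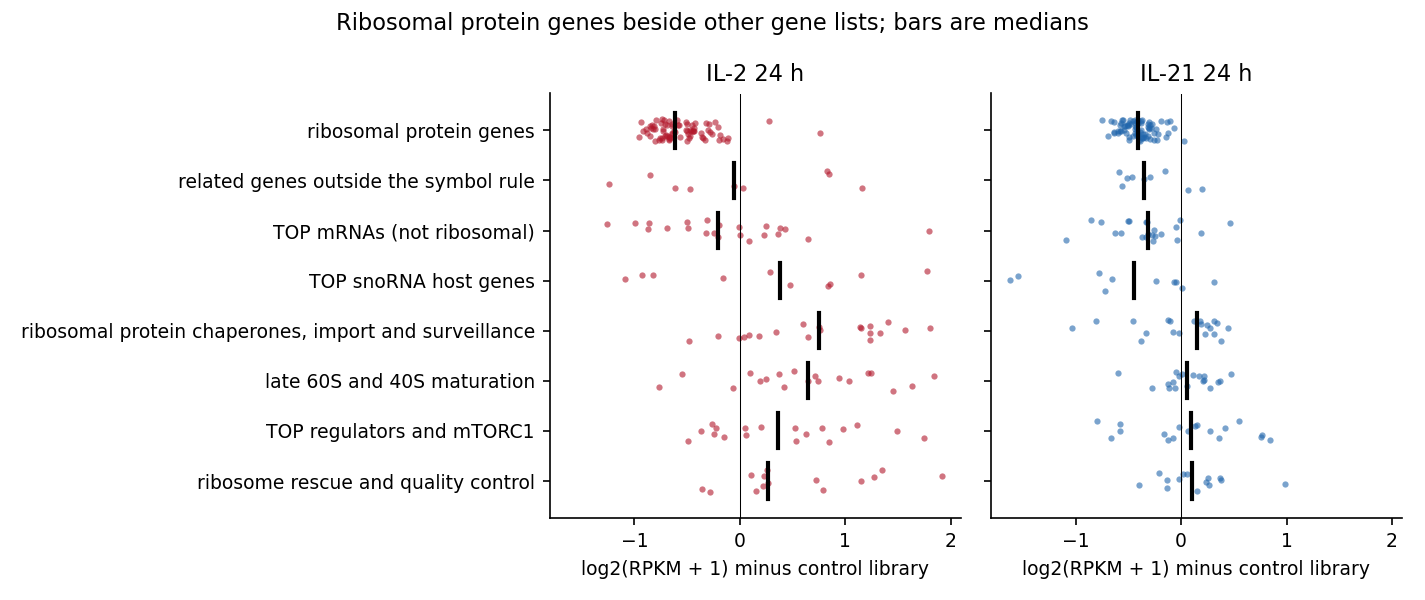
Differences from control at 24 h on the log2(RPKM + 1) scale for the 78 ribosomal protein genes (top row) and 7 other gene lists, with IL-2 (left) and IL-21 (right); points are genes, placed with a small vertical jitter, and bars are medians. With IL-2 the ribosomal protein genes have a median of −0.62 and the chaperone and import list 0.75.

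Markers of other cells moved between the same libraries. The 9 B cell markers summed to 59.8 RPKM in the control library, 27.4 with IL-2 at 24 h and 11.4 with IL-21 at 24 h, and all 9 had reads in every library. The 6 CD4 T cell markers summed to 1392, 811 and 1351 RPKM, with 6 of 6 at least 1.2-fold lower with IL-2 at 24 h and 1 of 6 with IL-21. The 5 NK cell markers summed to 193, 115 and 520 RPKM, nearly all of it the granzyme gene Gzma (191, 113 and 519), which activated T cells can also express. Of the other NK cell markers, Eomes had 1.02, 2.45 and 0.725 RPKM, and Ncr1, Klrb1c and Klre1 had at most 0.510 RPKM in these libraries. The 6 macrophage markers summed to 7.77, 2.93 and 9.23 RPKM. The CD8 pair summed to 9.73, 6.27 and 11.3 RPKM, the 4 dendritic markers to 2.04, 0.604 and 1.84, and the 6 erythroid markers to 3.24, 0.645 and 0.436. Their part in the ribosomal protein results was not tested.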

How the data were processed

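The 9 RNA-seq libraries were analysed from the deposited tables, which hold, per RefSeq transcript row, whole-number read counts and RPKM, both made by the authors. Per the submitters' processing notes, the build was mm9 and the tools were Bowtie 0.12.9, TopHat2 2.0.11, SAMtools and HOMER; the sources used here do not give the counter, its strand setting or the annotation version. Per the labels' protocols, libraries were made with a stranded kit from fragments of 250-400 bp. Library totals were recovered from reads, row lengths and the RPKM.

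From the RPKM, differences of log2(RPKM + 1) were taken, with a fold of 1.2 as the count threshold, over 11046 genes of highest RPKM 1 or more, leaving out 746 symbols of short RNAs. Counting intervals on ratios are exact at 95%, and no molecular identifiers are described, so they cover counting error only. From the counts, edgeR 4.0.16 (TMM, quasi-likelihood) was run on the 8 cytokine libraries, with a term for each time (3 residual degrees of freedom, 2 for the slope), over 10452 genes, with Benjamini-Hochberg adjustment; DESeq2 1.42.0 and limma 3.58.1 (R 4.3.3) were alternatives. The scripts were tested on simulated data. Tables were computed with Python 3.11.15, pandas 2.3.3 and scipy 1.17.1.

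The members and lists were chosen with earlier results of these data known. Members named with values were the 3 highest and 3 lowest by mean RPKM, by difference from control at 24 h of each cytokine and by IL-2 minus IL-21 at 24 h, the 3 of smallest p in each test, and those with a described role. In the other lists, up to 3 highest and 3 lowest at 24 h of IL-2 were named. Some items that this rule would name are not reported here.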

Additional observations from a re-analysis of the deposited data

How the results depend on the processing

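A pseudocount of 0.1, the longest row of each symbol and no minimum RPKM changed no median or count over the members beyond counting error or 1.5 times, and no result changed direction. Scaling moved sizes. With TMM factors the median difference from control was 0.0057, −0.45 and −0.72 at 0.5, 4 and 24 h of IL-2 and −0.16 and −0.24 at 0.5 and 4 h of IL-21, and that between the cytokines 0.15 at 0.5 h and −0.27 at 24 h; 1 member was higher at 24 h of IL-2, 5 and 24 were lower at 0.5 and 4 h of IL-21, and 11 were higher with IL-2 than IL-21 at 0.5 h. With upper-quartile factors the medians were −0.47 and −0.81 at 4 and 24 h of IL-2, −0.20 and −0.44 at 4 and 24 h of IL-21, and 0.20, −0.27 and −0.32 between cytokines at 0.5, 4 and 24 h; 1 was higher at 24 h of IL-2, 10 and 2 lower at 0.5 and 4 h of IL-21, and 44 lower with IL-2 than IL-21 at 4 h. With totals that leave out the members the medians were 0.012, −0.24 and −0.76 at 0.5, 2 and 24 h of IL-2, −0.19 and −0.27 at 0.5 and 2 h of IL-21, and 0.18, −0.24 and −0.31 between cytokines at 0.5, 4 and 24 h; 27 were lower at 2 h and 1 higher at 24 h of IL-2, 8 lower at 0.5 h of IL-21, and 17 higher at 0.5 h and 26 lower at 4 h with IL-2 than IL-21. The cause was not tested.

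The share of reads, in the order control, IL-2 at 0.5, 2, 4 and 24 h and IL-21 at the same times, was 13.0%, 13.1%, 11.2%, 10.2%, 8.22%, 11.7%, 10.98%, 11.8% and 10.1% of the reads on all chosen rows. It was 8.73%, 8.91%, 7.15%, 6.70%, 5.86%, 7.59%, 6.96%, 7.72% and 6.59% without the 5 members of most reads, as these denominators and sets require.

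Leaving out 1 library at a time, edgeR passed 0 to 0 members for IL-2 against IL-21, 0 to 16 for 24 h against 0.5 h and 0 to 10 for the slopes; DESeq2 passed 0, 3 and 2, and upper-quartile factors 2 for the slopes. Those counts rest on 3 or fewer residual degrees of freedom. No paired analysis was possible because each RNA-seq condition had 1 library, so no replicate numbers are shared; the test between cytokines did carry a term for each time. The ChIP-seq samples that share replicate numbers were not analysed here.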
